A study of Mus musculus with 4 samples.

Results

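The genes of the BCL2 family of apoptosis regulators were examined in cultured fibroblasts derived from mouse embryos (MEFs), with or without a knockout of the transcription factor gene Stat3. All probes whose symbol in the probe-to-gene table was Bcl2, Bcl2l1, Mcl1, Bax, Bak1, Bad, Bid, Bcl2l11, Bbc3 or Pmaip1 were taken. There were 23 such probes among the 46632 on the array, and they covered 9 of the 10 genes, out of 17711 named genes in all. No probe listed Bax, so one of the pair of pore-forming effectors was not analysed here.

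The samples were MEF cell lines of C57BL/6 background, either wild type (WT) or STAT3KO, lacking Stat3, whose product acts downstream of cytokine receptors. Each genotype was sampled without IFNa and after 2 h with IFNa (interferon alpha) at a dose of 1000 U/ml. Total RNA was hybridised to Illumina bead arrays, 1 for each of the 4 groups. With no replicates, precision is limited by that number of arrays. The labels do not say how the Stat3 allele was made or whether a genotype was more than 1 line, so genotype and cell line cannot be told apart.

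BCL2 proteins decide whether the outer mitochondrial membrane stays sealed. The anti-apoptotic members BCL2, BCL-XL (the product of Bcl2l1) and MCL1 bind and restrain the effectors BAX and BAK, which form pores that release cytochrome c, and the BH3-only proteins relieve that restraint or activate the effectors directly. Bcl2l1 and Mcl1 are known STAT3 target genes in several cell types. Type I interferon acts mainly through the interferon-stimulated response element (ISRE) in the promoters of its target genes, while STAT3 dimers bind the GAS element.

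The promoters of the members were searched for both elements, because they are the sequences through which the knocked-out factor and the treatment are known to act. RefSeq (GRCm38.p6) gave 15 promoters for 9 members, each as the 250 bases before an annotated transcription start (Pmaip1 was not searched). None of the 15 held the GAS letters TTCNNNGAA or the ISRE core, written here as GAAA, any 2 bases and GAAA, on either strand. Among all 32851 promoters of that length, 7.02% held the first and 2.98% the second. Of the 11 promoters of 10 interferon response genes searched the same way, 6 held the ISRE core and 3 held the GAS letters. These letters being missing says nothing of sites elsewhere or of a factor's binding. The promoters of Bid, Mcl1 and Bcl2, whose probes the genotype results below turn on, are shown 5′ to 3′ in the direction of transcription with that of the interferon response gene Rsad2, where capitals mark the ISRE core (read on the other strand). They lie at chr6:120916825-120917074 (minus strand), chr3:95658471-95658720 (plus strand), chr1:106714291-106714540 (minus strand) and chr12:26456453-26456702 (minus strand). The core of Rsad2 begins 120 bases before the start site.
Bid: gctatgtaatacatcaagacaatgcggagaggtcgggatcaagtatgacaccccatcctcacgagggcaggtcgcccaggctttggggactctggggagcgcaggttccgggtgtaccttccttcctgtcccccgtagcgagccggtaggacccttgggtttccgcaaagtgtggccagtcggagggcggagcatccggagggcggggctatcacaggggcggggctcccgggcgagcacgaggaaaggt
Mcl1: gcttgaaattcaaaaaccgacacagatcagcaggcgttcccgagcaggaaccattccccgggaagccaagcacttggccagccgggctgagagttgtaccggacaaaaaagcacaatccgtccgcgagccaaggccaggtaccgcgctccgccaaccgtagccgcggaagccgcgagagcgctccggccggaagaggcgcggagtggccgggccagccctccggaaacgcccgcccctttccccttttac
Bcl2: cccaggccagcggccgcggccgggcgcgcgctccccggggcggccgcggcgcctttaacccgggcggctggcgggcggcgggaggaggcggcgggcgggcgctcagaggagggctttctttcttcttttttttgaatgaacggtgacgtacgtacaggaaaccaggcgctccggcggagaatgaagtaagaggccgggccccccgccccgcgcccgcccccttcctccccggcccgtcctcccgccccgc
Rsad2: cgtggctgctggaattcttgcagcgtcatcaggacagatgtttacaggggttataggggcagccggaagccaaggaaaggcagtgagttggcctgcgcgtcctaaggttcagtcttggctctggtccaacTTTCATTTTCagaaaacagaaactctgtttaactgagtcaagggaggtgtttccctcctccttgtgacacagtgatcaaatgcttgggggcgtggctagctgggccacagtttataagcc

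The arrays detected between 16076 and 17524 probes at a detection p under 0.01. Normalized log2 intensities of the brighter Stat3 probe were 10.75 and 11.01 in the WT arrays (untreated, then IFNa) and 6.56 and 6.16 in the STAT3KO arrays. The arrays labelled STAT3KO were thus lower by 18.2-fold untreated and by 28.9-fold after IFNa, and the probe was still detected there. The STAT3KO arrays also stood apart in fibroblast markers: 9 of the 13 tested were lower (limma) and 0 higher, with a median log2 difference of -3.47, and Thy1 was not detected in either STAT3KO array. Vim differed by -0.02. Summed over the 14 fibroblast markers with a probe, the authors' intensities were 70625 to 81376 in WT and 44436 to 50151 in STAT3KO. Of other markers, 2 of 6 epithelial, 2 of 5 endothelial and 1 of 6 leukocyte genes were detected on any array, with sums between 370.6 and 561.3 on every array, and Ptprc, Adgre1, Lyz2, Cd3e and Cd79a were detected on none. In whole-culture RNA, fewer cells of a type and less RNA per cell cannot be told apart. The part of these marker differences in the genotype values below was not tested. Per the file headers, the WT untreated intensities had already been normalized when deposited. The comparison of the genotypes with IFNa and the response in STAT3KO are not differences from that array, although it entered the quantile normalization of all 4. All other comparisons below use it, and so does every limma mean, SE and p-value. Its values went through the same background correction as those of the other arrays.

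Of the 23 probes, 6 were detected on all 4 arrays (both brighter probes of Bcl2, and those of Mcl1, Bak1, Bad and Bid), 6 on some arrays and 11 on none. Mcl1, which makes a short-lived anti-apoptotic protein, was detected with intensities deposited by the authors as normalized values of 3473 and 3487 in WT (untreated, then IFNa), and 5183 and 4148 in STAT3KO. Listed in that order throughout, Bid had authors' intensities of 688.3, 784.7, 1397 and 1713. The values of Bcl2 probe ILMN_2682162 were 122.5, 127.5, 241.7 and 228.2, where each array's median over all probes was 75. For Bid and this Bcl2 probe both STAT3KO arrays were higher than both WT arrays, and the same held for Mcl1 by a narrower margin. It held as well for Bad and Bcl2 probe ILMN_1249021, and in the other direction for Bak1, but these probes did not pass the genotype test below. The share of all probes that separate the genotypes in this way was not counted, so the separation is not read as a trait of the family.

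**Figure D1:**
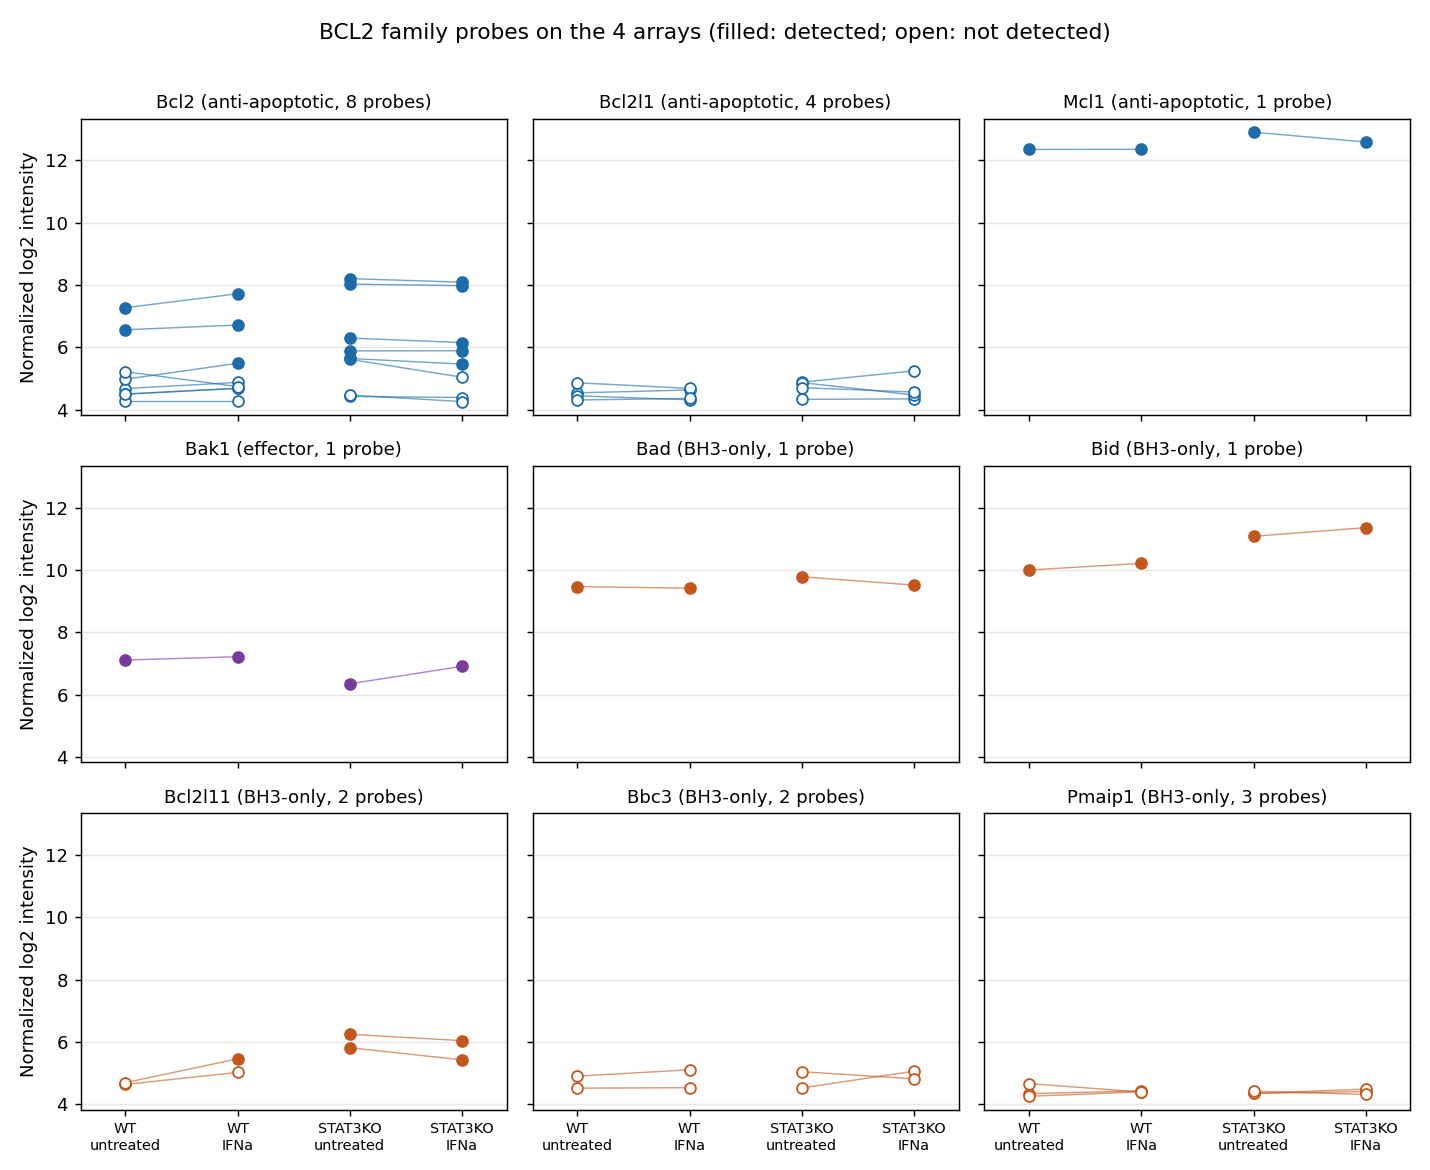
Normalized log2 intensity (vertical axis) of each of the 23 BCL2 family probes on the 4 arrays (horizontal axis), with 1 panel per gene, filled points where the probe was detected and open points where it was not, and lines joining the arrays of 1 genotype. The probes of Mcl1, Bad, Bid and Bak1 and the brighter pair of Bcl2 are filled on every array, whereas all probes of Bcl2l1, Bbc3 and Pmaip1 are open.

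The members that no array detected were Bcl2l1 and the BH3-only genes Bbc3 (PUMA) and Pmaip1 (NOXA), both known p53 targets. The 4 probes of Bcl2l1 had normalized log2 intensities between 4.31 and 5.25 and detection scores between 0.053 and 0.974, where a score above 0.99 counts as detected. The highest, probe ILMN_1255430, read 4.54, 4.63, 4.88 and 5.25, with scores of 0.561, 0.707, 0.926 and 0.974. For Bbc3, 2 probes had scores from 0.526 to 0.972, and for Pmaip1, 3 probes had scores from 0.011 to 0.735. At these intensities no difference between the arrays could be measured for the 3 genes, in either direction.

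The first comparison was between the genotypes, as the mean difference over both treatments, fitted with limma over the 19656 probes detected on at least 1 array. Bid, Mcl1 and 1 of the Bcl2 probes measured on every array were higher in STAT3KO. Of the 6 member probes detected on all 4 arrays, 3 were higher and 0 lower at an adjusted p under 0.05, beside 21.6% higher and 19.2% lower of the 13884 probes so detected. Over all 12 member probes tested, 5 were higher and 0 lower, beside 18.8% and 17.0% of all probes tested. The additional pair was detected in STAT3KO alone and passed the filter through that group. By the brightest probe of each gene, the median log2 difference was 0.02 over all named genes tested and 0.45 over the member genes. The latter includes the Bcl2l11 probe of that pair. The test rests on 1 residual degree of freedom and on a spread shared by probes of equal brightness (the prior degrees of freedom were infinite). Its p-values, SEs and intervals therefore hold no spread between replicate cultures.

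Bcl2, the founding anti-apoptotic member, had 8 probes, of which 6 were detected somewhere. Probe ILMN_2682162, assigned to the transcript NM_177410, had normalized log2 intensities of 6.56 (untreated) and 6.72 (IFNa) in WT, and of 8.21 and 8.09 in STAT3KO. Both STAT3KO arrays lay above both WT arrays. The difference was 3.12-fold without IFNa and 2.59-fold with it, with a mean of 1.51 ± 0.26 (log2, limma SE, 95% interval 1.0 to 2.01, adjusted p = 3.49e-08). With the authors' normalized values and no further background correction this mean was 0.91 (limma adjusted p = 7.76e-09). The limma adjusted p was 0.000731 with 75th percentile scaling and 0.0164 with no intensity trend, the highest of the 9 settings that tested this probe.

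Probe ILMN_1249021, assigned to the other Bcl2 transcript NM_009741, gave 7.27, 7.72, 8.03 and 7.98 in the same order of arrays. The STAT3KO arrays were again the higher pair, but WT IFNa came within 0.26 of STAT3KO IFNa. Its mean genotype difference was 0.51 ± 0.23 (log2, limma SE, 95% interval 0.06 to 0.96, adjusted p = 0.0692), which did not pass, and 0.35 with the authors' normalized values (limma adjusted p = 0.0467), which did. The difference between the 2 probes was not tested.

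The other detected Bcl2 probes were dim, so a fold is given as a bound, measured against the dim array's lowest detected level or, where higher, the level of the probe itself there. Probe ILMN_1215796, also for NM_177410, was detected in both STAT3KO arrays (6.30 and 6.15) and in neither WT array (4.68 and 4.88). It was at least 1.87-fold higher in STAT3KO without IFNa and at least 1.84-fold higher with it (limma adjusted p = 0.00154). These bounds are on the background-corrected scale, and the authors' intensities were 73.5 and 77.9 in WT, and 113.8 and 109.5 in STAT3KO. The mean log2 difference was 1.45, and 0.56 with the authors' values or 0.66 with no background correction. Probe ILMN_1249366 was at least 1.41-fold higher untreated and 1.32-fold higher with IFNa, with a limma adjusted p of 0.22. ILMN_2597567 and ILMN_2706514 had bounds between 1.14-fold and 1.19-fold, and limma adjusted p-values of 0.187 and 0.319. All Bcl2 probes share 1 gene and the same 4 RNA samples, and those detected in STAT3KO alone passed the filter through that group. The remaining pair, ILMN_1243345 and ILMN_2597272, had scores of at most 0.771 on any array.

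Mcl1 had normalized log2 intensities of 12.35 (untreated) and 12.35 (IFNa) in WT, and of 12.90 and 12.59 in STAT3KO. The STAT3KO arrays were the higher pair, by 1.47-fold without IFNa and 1.18-fold with it. The mean was 0.39 ± 0.13 (log2, limma SE, 95% interval 0.13 to 0.66, adjusted p = 0.0112). The call was lost with scaling to the 75th percentile (0.30, limma adjusted p = 0.844), with cyclic loess (0.35, adjusted p = 0.0763) and with a variance that did not follow intensity (0.39, adjusted p = 0.251).

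Bak1, the effector that sits in the outer mitochondrial membrane, was the only member detected on all arrays whose STAT3KO values lay below WT. Its normalized log2 intensities were 7.11 (untreated) and 7.22 (IFNa) in WT, and 6.35 and 6.91 in STAT3KO. The fold decrease in STAT3KO was 1.70 untreated and 1.24 after IFNa. The mean of -0.54 ± 0.30 (log2, limma SE, 95% interval -1.12 to 0.05) did not pass the test (adjusted p = 0.165).

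Among the BH3-only genes, Bid encodes the protein that caspase-8 cleaves to carry a death receptor signal to mitochondria. It read 10 (untreated) and 10.21 (IFNa) in WT, and 11.08 and 11.36 in STAT3KO. Both STAT3KO arrays lay above both WT arrays, and the gap was larger than the change with IFNa in either genotype. How many of all probes did the same was not counted. Of all named genes tested, 23.1% were higher and 20% lower in STAT3KO at a limma adjusted p under 0.05. Bid was 2.12-fold higher in STAT3KO without IFNa and 2.21-fold higher with it, with a mean of 1.11 ± 0.13 (log2, limma SE, 95% interval 0.86 to 1.37, adjusted p = 1.77e-16). The mean lay between 1.07 and 1.11 over the normalizations tried. Settings that change only the probes tested or the variance leave the mean as it is by construction. Scaling to the 75th percentile was the one setting under which Bid lost its call (limma adjusted p = 0.206).

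Bad, whose product is held inactive by survival kinases, gave 9.47, 9.42, 9.78 and 9.52 in the same order. All 4 values lay close together, with the STAT3KO arrays the higher pair. The mean genotype difference of 0.21 ± 0.15 (log2, limma SE, 95% interval -0.08 to 0.49) did not pass (adjusted p = 0.297).

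Bcl2l11 encodes BIM, a BH3-only protein that binds all the anti-apoptotic members. Its probe ILMN_1229255, for the transcript NM_207681, was detected in STAT3KO untreated (6.25) and STAT3KO IFNa (6.04) and not in WT untreated (4.64) or WT IFNa (5.03). The level in STAT3KO was at least 1.81-fold higher without IFNa and at least 1.71-fold higher with it on the background-corrected scale (limma adjusted p = 0.00475). The probe passed the detection filter through STAT3KO alone, and the test used WT values below detection. Its p-value is therefore not read as support for a difference. The authors' intensities were 72.4 and 80.9 in WT, and 112.3 and 106.2 in STAT3KO. The mean log2 difference was 1.31, and 0.51 with the authors' values or 0.60 with no background correction. Its other probe, ILMN_2590635 for NM_009754, gave 4.70, 5.46, 5.82 and 5.43, and only WT untreated fell short of detection. That probe was at least 1.34-fold higher in STAT3KO untreated and was 1.02-fold lower after IFNa, and its mean did not pass (limma adjusted p = 0.346). With IFNa present the Bcl2l11 probes thus gave different values, and that difference was not tested.

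**Figure D2:**
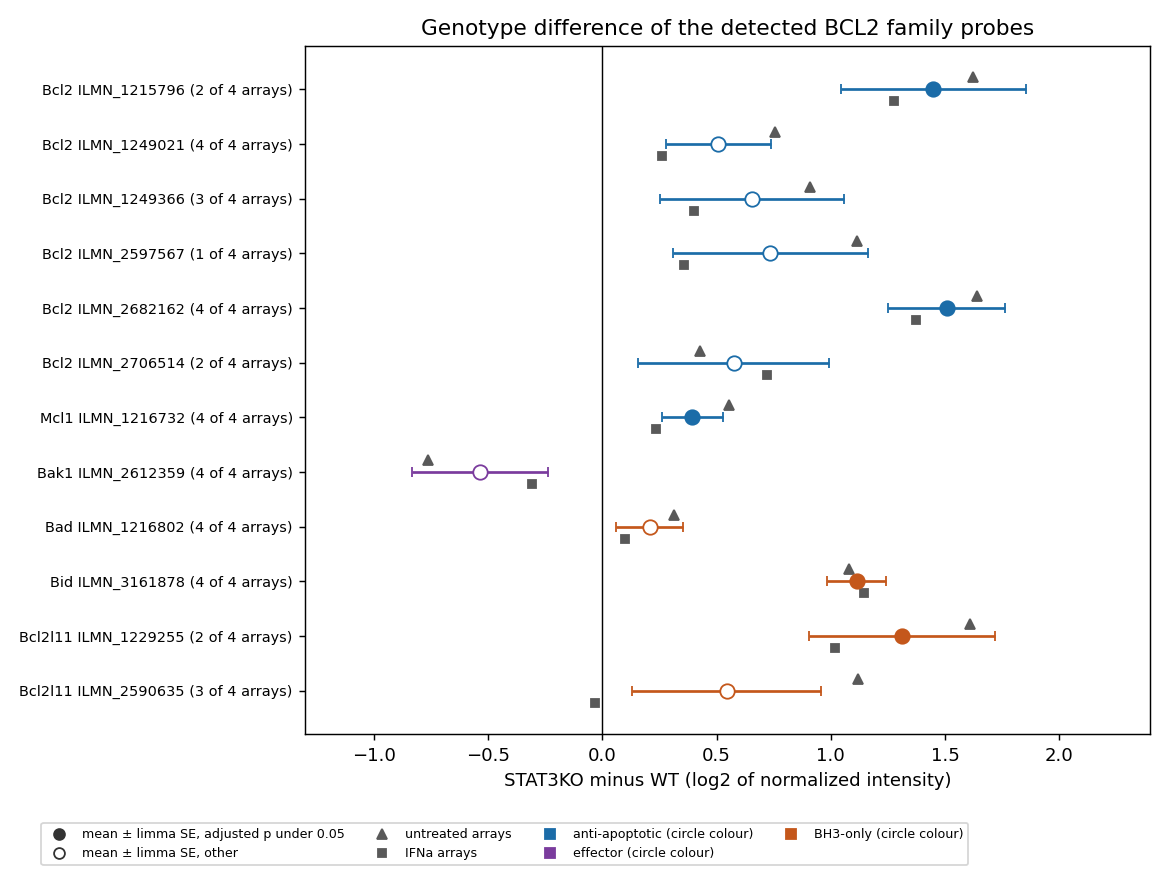
Difference between STAT3KO and WT in normalized log2 intensity (horizontal axis) for the 12 BCL2 family probes detected on at least 1 array, with the limma mean ± SE as circles (filled at an adjusted p under 0.05, coloured by role), untreated arrays as triangles and IFNa arrays as squares. The means run from -0.54 for Bak1 to 1.51 for Bcl2 ILMN_2682162, and the triangle and square of Bid almost coincide.

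Pairs of arrays were also counted at 2-fold, with no test. Of the 6 member probes detected on all 4 arrays, 2 were at least 2-fold higher in STAT3KO without IFNa, beside 9.35% of all probes so detected, and 2 were higher with IFNa, beside 7.58%. They were Bid and Bcl2 ILMN_2682162 both times. With probes detected on either array of the pair included, the counts were 6 of 12 (11.9% of all probes) and 4 of 11 (9.17%). None of the additional 4 and 2 probes reached 2-fold as a bound, each was undetected on at least 1 of the 4 arrays, and the larger counts became 1 and 1 with the authors' normalized values.

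The second question was whether IFNa changed the family within 2 h. By the criteria used, no change with IFNa was called for the 6 genes detected, and Bax, Bcl2l1, Bbc3 and Pmaip1 could not be assessed. None of the 12 member probes passed limma's test of the mean response over both genotypes and none had an unadjusted p under 0.05, beside 1.03% of all 19656 probes called. No member probe differed by 2-fold in WT (8 probes detected on either array) or in STAT3KO (12 probes), where 1.37% and 2.24% of all probes did. With shares this low, counts of 0 among so few probes are near the shares over all probes. All 11 interferon response genes tested rose (limma), with a median mean response of 4.46 on the log2 scale, and Rsad2 rose at least 46.7-fold in WT, where the untreated array did not detect it, and by 7.59 (log2) in STAT3KO.

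Bid had the lowest p of the members. From the levels given above, IFNa over untreated was 1.16-fold in WT and 1.21-fold in STAT3KO, a mean log2 response of 0.24 (limma 95% interval -0.01 to 0.50, unadjusted p = 0.0601). For Mcl1 the responses were 0.00 in WT and -0.31 in STAT3KO, with an interval of the mean from -0.42 to 0.11. Bad had responses of -0.05 and -0.27, and an interval from -0.44 to 0.13. The upper end of the interval was thus below a 2-fold rise for Bid, and lower still for Mcl1 and Bad. These intervals hold no spread between replicate cultures, so they set no bound on the response. Bak1 gave 0.11 in WT and 0.56 in STAT3KO, where it was 1.47-fold higher, and its interval ran from -0.25 to 0.92. For Bcl2, ILMN_2682162 gave 0.15 and -0.12, and ILMN_1249021 gave 0.45 and -0.05.

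**Figure D3:**
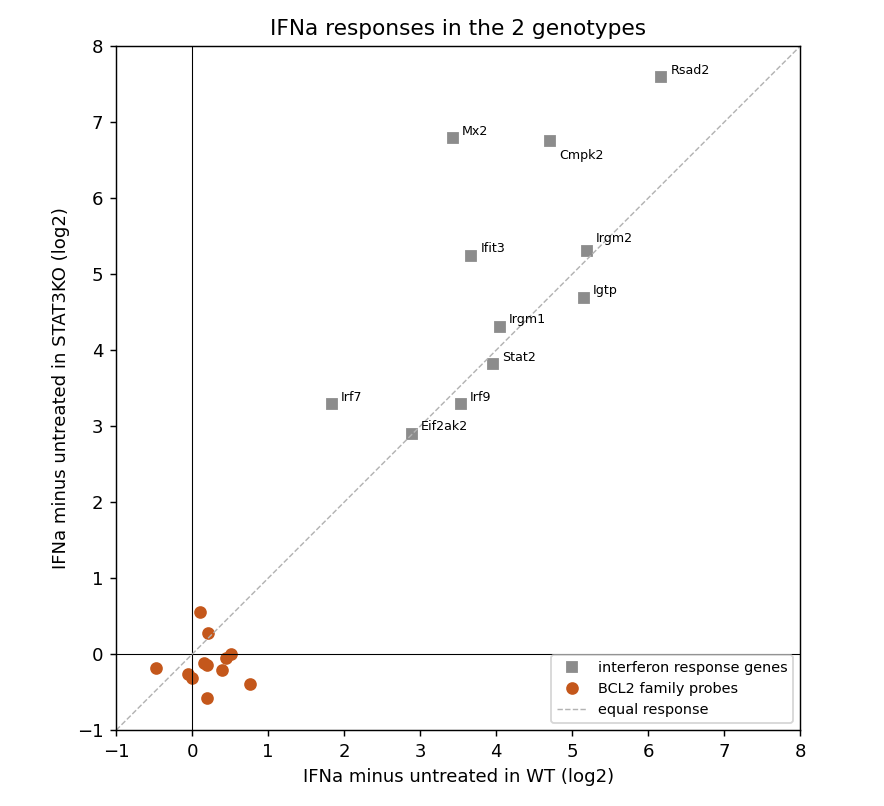
Log2 response to IFNa in WT (horizontal axis) against that in STAT3KO (vertical axis) for the 12 detected BCL2 family probes (circles) and 11 interferon response genes (squares), with a dashed line of equal response. All circles lie between -0.57 and 0.76 on both axes, whereas Irf7, the interferon response gene with the smallest mean, lies at 1.83 and 3.28.

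The third question was whether the response differed between genotypes, for which 1 array per group gives no test. Of the 12 member probes, 1 had responses that differed by at least 2-fold, Bcl2l11 ILMN_2590635, beside 3.98% of all probes differing that way (a lower response in STAT3KO) and 7.13% the other way. The number of all probes differing at 2-fold was 2185, and 138 with the authors' values. Its response was 0.76 in WT, at least 1.05-fold higher as a bound since WT untreated was not detected, and -0.39 in STAT3KO. The difference of -1.15 log2 thus starts from a level below detection. No member detected on all 4 arrays differed by that much.

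Other genes of the mitochondrial and death receptor pathways were set beside the family, each by its brightest probe. Of all 10515 named genes tested, 23.1% were higher and 20% lower in STAT3KO at an adjusted p under 0.05 (limma), so counts in short lists are read against those shares. Among 10 other BCL2 relatives tested, 2 were higher and 2 lower, with a median log2 difference of 0.13. Bcl2l13, a mitochondrial relative, was 2.21-fold and 2.38-fold higher without and with IFNa (mean 1.20 ± 0.13, limma adjusted p = 7.13e-18), and its other probe gave 1.45. Bcl2l14 was detected in STAT3KO alone, at least 2.08-fold and 1.78-fold higher. Bik, a BH3-only gene, was detected in WT alone and was at least 1.92-fold and 1.86-fold lower in STAT3KO. Both passed the detection filter through the group where they were high, so their place in the count follows in part from the filter. Bcl2l2, the gene of anti-apoptotic BCL-W, was lower by the brightest of its probes (-0.38 ± 0.14, limma adjusted p = 0.0186), while its other probes gave -0.08 and 0.03.

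Downstream of the mitochondria, 3 of the 8 apoptosome and mitochondrial genes tested were higher and 1 lower in STAT3KO (median 0.22). Casp9, the initiator caspase that the apoptosome activates, was 4.17-fold higher without IFNa and 2.72-fold higher with it (mean 1.75 ± 0.19, limma adjusted p = 3.76e-18). Htra2 was higher by 0.72 and Endog by 0.61, although 1 other probe of Htra2 gave 0.27 and the other Endog probe -0.07, neither of which passed, and Vdac3, a mitochondrial channel, was lower (-0.80). Of 6 caspases tested, Casp2, Casp6 and Casp8 were higher (1.01, 0.93 and 0.84) and Casp4 lower, with a median of 0.22. The dimmer probes of Casp2 and Casp6 gave 0.33 and 0.42 and did not pass. Casp4, an inflammatory caspase, was lower by 7.37-fold untreated and 10.1-fold after IFNa (limma adjusted p = 1.3e-64). Of 5 inhibitor of apoptosis genes, Birc2 was higher (0.61, limma adjusted p = 0.0125), none was lower, and the median was -0.13.

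In the death receptor pathway, which reaches the family through Bid, 3 of the 7 genes tested were higher and 1 lower (median 0.32). The receptor genes Tnfrsf10b and Tnfrsf1a were higher by means of 1.42 and 0.73 (the other Tnfrsf1a probe gave 0.39 and did not pass), and Fadd, the adaptor that recruits caspase-8, by 0.59 (limma adjusted p = 0.000499). Fas was detected in WT alone and was at least 1.94-fold and 2.42-fold lower, having passed the detection filter through WT, while its other probe gave -0.20. On the p53 axis 1 of 8 genes was higher and 3 lower (median -0.29): Trp53inp1 differed by 1.51, Cdkn1a, a cell cycle inhibitor, by -1.16, Ccng1 by -0.65 and Zmat3 by -0.50. The other probes of Ccng1 gave -0.26 and -0.22 and did not pass. Of 19 direct regulators of BCL2 proteins, 4 were higher and 5 lower (median -0.10). Ywhaz, an adaptor that holds phosphorylated BAD, was higher by 2.68 ± 0.24 (limma adjusted p = 1.21e-26), and Bag3, a co-chaperone, by 1.19. Akt2 and Fbxw7 were the others that were higher, and Trib3, Pim3, Huwe1 and Bag4 were lower beside Ddit3, although the other Trib3 probe gave -0.10 and did not pass. Ddit3, the stress factor CHOP, was lower by a mean of -1.63 ± 0.15 (limma adjusted p = 4.63e-25).

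With IFNa, 1 gene rose and 1 fell in these 7 lists, beside 1.03% of named genes tested that rose and 0.333% that fell. Casp4 rose by 1.005 in WT and 0.55 in STAT3KO (limma adjusted p = 0.00223), while its other probe gave a mean of 0.39 and did not pass. The log2 response of Ddit3 was -1.20 in WT and -0.31 in STAT3KO (limma adjusted p = 0.000133). Tnfsf10, the ligand TRAIL, differed by -0.34 in WT and 1.59 in STAT3KO and did not pass.

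**Figure D4:**
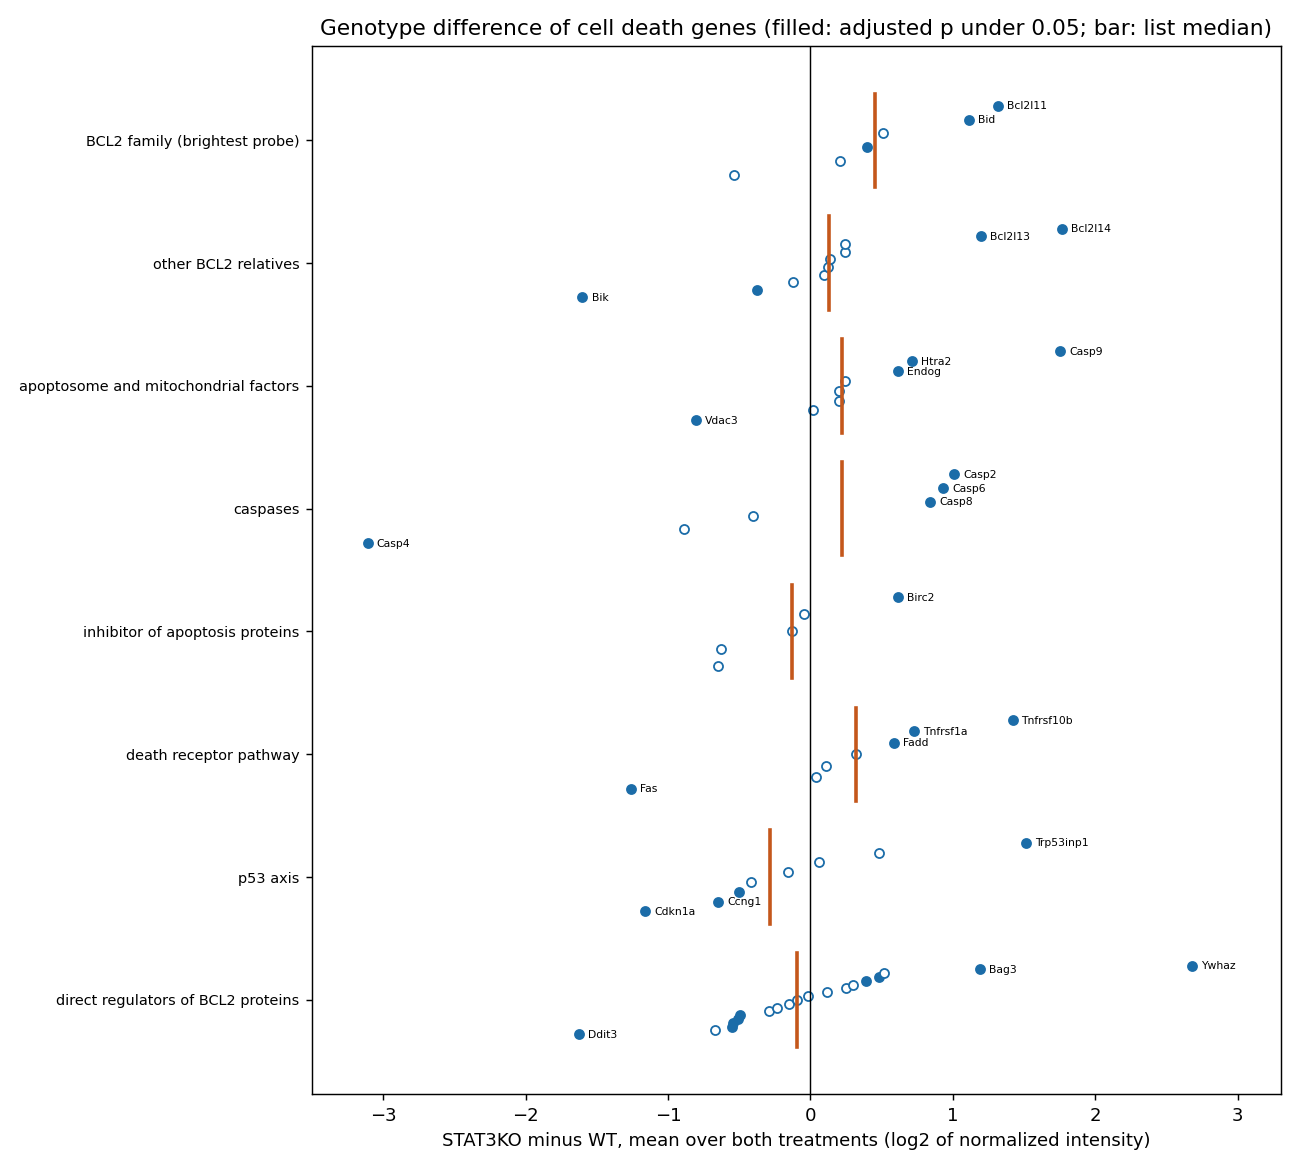
Mean difference between STAT3KO and WT (log2 of normalized intensity, horizontal axis) for the brightest probe of each detected gene in the BCL2 family and in 7 lists of cell death genes (vertical axis), filled at a limma adjusted p under 0.05, with a vertical bar at each list's median. The family median is 0.45, and those of the 7 lists run from -0.29 for the p53 axis to 0.32 for the death receptor pathway. The family's 3 calls are Mcl1, Bid and Bcl2l11, all higher. The Bcl2l11 probe was detected in STAT3KO alone, passed the filter through that group and enters the family median.

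Among the members detected on all 4 arrays by their brightest probe Bid had the largest range, and the named genes whose centred profile lay nearest to it were Immt, Vopp1 and Pigl. Their root mean square differences from Bid over the 4 arrays were 0.0368, 0.0423 and 0.0458 on the log2 scale, the smallest of 8128 genes compared. Immt, for example, read 12.57 and 12.76 in WT (untreated, then IFNa), and 13.66 and 13.85 in STAT3KO. Each likeness rests on only 4 arrays.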

How the data were processed

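The authors hybridised biotin-labelled cRNA of 4 samples to Illumina mouse bead arrays and used BeadStudio 3.2.3, per the submitters' processing notes. Their main table holds a linear intensity and a detection score for every probe, per the file headers, and 1 minus the score served as detection p. The WT untreated column held normalized intensities, its raw values having been lost, per the file headers. A second deposited table of the authors' normalized intensities was used as an alternative, and how they were normalized is not given in the labels.

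Background was corrected with limma's normexp (version 3.58.1, R 4.3.3, offset 16, estimated from detection p), followed by quantile normalization and log2. A detection p under 0.01 counted as detected. A limma fit with genotype and treatment terms (eBayes, intensity trend, Benjamini-Hochberg) gave the p-values. The fit was also run on simulated data with changes planted in the treatment term only. That simulation held no spread between replicate cultures and does not check the genotype test. Other differences between single arrays have no test.

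Of 46632 probes, 29976 had 1 gene symbol in the platform table, 10 had several and 16646 none, which are unnamed here. Text names were all members, Stat3, up to 4 genes per list by genotype difference and 2 by IFNa response, genes needed for counts of 5 or fewer, and the 3 profiles nearest to the widest-ranging member. A gene stands for its brightest probe. The members and lists were chosen with earlier results of these data known. Alternatives tried were no background correction, 75th percentile scaling, cyclic loess, offset 50, the authors' values, detection on all arrays, no filter, 1 probe per gene and no intensity trend.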

Additional observations from a re-analysis of the deposited data

Results flagged for a closer look

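Bcl2 and Mcl1 had responses to IFNa of opposite sign in WT and STAT3KO on probes detected on all 4 arrays. With 1 array per group the differences were not tested. The response in STAT3KO minus that in WT was -0.50 (log2) for Bcl2 ILMN_1249021, -0.27 for Bcl2 ILMN_2682162 and -0.32 for Mcl1, whose response in WT was 0.00 to 2 decimals. The median of all probes tested for this difference was -0.08. Their median responses were also of opposite sign, 0.02 in WT and -0.04 in STAT3KO. The share of all probes with responses of opposite sign was not counted.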

How the results depend on the processing

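No paired analysis was possible because each group was 1 array and the labels give no replicate numbers, so no array could be left out within a group either. The number of member probes called between the genotypes was 5, and 3 with 75th percentile scaling, with detection on all arrays and with 1 probe per gene. Over all probes it was 7038, and 2649 with 75th percentile scaling, 4508 with 1 probe per gene and 3532 with no intensity trend. For IFNa the count over all probes was 202, and 79 with 75th percentile scaling, 128 with detection on all arrays, 127 with no filter, 115 with 1 probe per gene and 0 with no intensity trend, and the member count was 0 under all of these. At 2-fold, the 6 member probes higher in STAT3KO without IFNa became 2 with no background correction, offset 50, detection on all arrays or 1 probe per gene and 1 with the authors' values. The 4 with IFNa became 1 with no background correction or the authors' values and 2 with offset 50, detection on all arrays or 1 probe per gene. The 1 probe whose responses differed became 0 with no background correction, 75th percentile scaling, offset 50, the authors' values, detection on all arrays or 1 probe per gene.

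The mean IFNa response of Bcl2 ILMN_2682162, 0.02 and not called, turned to -0.0008 with no background correction, -0.0434 with 75th percentile scaling, -0.10 with cyclic loess and -0.0126 with the authors' values, and that of Mcl1, -0.15, to 0.0201 with 75th percentile scaling. That scaling moved the median response of all probes in WT from 0.02 to 0.20. The cause of these changes was not tested, except that the filter and the choice of 1 probe per gene leave fewer probes. Over all probes, the 2-fold counts ranged over the alternatives from 59 to 409 (reported 241) for the response in WT, 106 to 754 (409) in STAT3KO, 1808 to 4676 (4005) between genotypes without IFNa and 1719 to 3707 (3580) with it. The count of differing responses ranged from 138 to 3230 (2185), with 138 under the authors' values, 149 with no background correction and 374 with offset 50.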
